A study of Mus musculus with 80 samples.

Results

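The Polycomb genes Ezh1, Ezh2, Eed, Suz12, Jarid2, Bmi1, Ring1 and Rnf2 and the opposing demethylase genes Kdm6a and Kdm6b were followed by their symbols in the gene table, 10 genes of 25899, in muscle stem cells (MuSCs) of extraocular muscles (EOM) and of the tibialis anterior (TA) before and after transplantation. All 10 were found and all 10 passed the filter on low values in every comparison. The donors were 10 male Tg:Pax7-nGFP mice, aged 7 or 7.6 weeks in the labels, in which a Pax7 transgene puts GFP in the nuclei of MuSCs, and they came in 2 experiments of 4 and 6 mice. From each donor 500 sorted EOM cells and 500 sorted TA cells gave the pre-graft libraries, and other cells of the same sort went into injured TA muscles of Rag2-/-;γC-/- mice, EOM cells into one leg and TA cells into the other. By the labels, GFP+ cells were sorted again at day 21 (post-graft), when a passing library held 16 to 67 cells from TA or at least 9 cells from EOM. The paper gives a later day in its results, and its supplement gives more cells for some of these libraries. Of 40 RNA libraries, 30 met the study's quality list: 8 EOM pre-graft, 8 TA pre-graft, 7 EOM post-graft and 7 TA post-graft. Both grafts grew in a TA, so all post-graft cells share the host, the injury and a second sort, and Experiment 1 gave 1 passing library to each post-graft group.

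Polycomb repressive complex 2 (PRC2) places methyl groups on lysine 27 of histone H3 (H3K27) through Ezh1 or Ezh2, with Eed and Suz12 as core subunits, and polycomb repressive complex 1 (PRC1) marks histone H2A with ubiquitin through the ligases Ring1 or Rnf2. Kdm6a and Kdm6b remove methyl groups from H3K27. In MuSCs the Polycomb complexes are known for keeping genes of other lineages and of differentiation silent, and across the body for holding the Hox genes in the state set by position along the axis.

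The promoters of Ezh2, Suz12 and Ring1 are shown because these were the 3 genes called lower in EOM MuSCs after grafting both with and without the donor mouse in the model. The sequences are from RefSeq on GRCm38.p6, 250 bases before and 20 after the annotated start, 5′ to 3′ on the strand of the gene. Capitals mark a match to TTTGGCGC or TTTCCCGC, 2 forms of the site of E2F factors, which were searched on both strands and do not overlap each other.
Ezh2, chr6:47595011-47595280, minus strand: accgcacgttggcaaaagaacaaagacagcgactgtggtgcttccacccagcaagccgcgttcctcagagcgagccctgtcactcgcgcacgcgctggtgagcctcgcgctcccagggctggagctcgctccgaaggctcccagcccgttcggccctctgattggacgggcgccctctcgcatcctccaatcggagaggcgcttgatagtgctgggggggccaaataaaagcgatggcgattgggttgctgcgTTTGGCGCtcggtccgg
Suz12, chr11:79992856-79993125, plus strand: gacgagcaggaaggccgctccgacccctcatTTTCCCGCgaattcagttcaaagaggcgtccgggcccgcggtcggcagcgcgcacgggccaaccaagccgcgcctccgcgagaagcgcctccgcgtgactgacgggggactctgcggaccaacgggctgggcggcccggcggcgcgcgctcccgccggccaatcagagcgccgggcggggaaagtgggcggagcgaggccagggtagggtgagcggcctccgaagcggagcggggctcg
Ring1, chr17:34024661-34024930, minus strand: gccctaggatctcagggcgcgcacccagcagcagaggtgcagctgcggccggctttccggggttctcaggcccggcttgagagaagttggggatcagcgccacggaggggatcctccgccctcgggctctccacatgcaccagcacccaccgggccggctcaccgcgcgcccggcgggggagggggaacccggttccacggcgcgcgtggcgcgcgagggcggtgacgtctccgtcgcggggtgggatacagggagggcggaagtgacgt

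The Ezh2 window held TTTGGCGC 4 bases after the start, and the Suz12 window held TTTCCCGC 219 bases before it. Of 32851 promoter windows of the same length, 0.46% held the first and 0.96% the second. These 2 were the only matches among the 9 genes of the 10 with a RefSeq window. Kdm6b was the gene without one.

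Markers of MuSCs were lower post-graft. The summed level of 10 MuSC markers, Pax7 and Myf5 among them, ran from 14670 to 18490 RPM (reads scaled to library size by the authors) in EOM and from 13500 to 22570 RPM in TA pre-graft, and from 1403 to 13970 RPM in EOM and from 324 to 10830 RPM in TA post-graft. Of the 10, 10 were called lower in TA and 9 in EOM on grafting, and 9 and 2 after each library was centred on the median of its tested genes. Of all tested genes 30.9% were called lower in TA and 55.8% in EOM, and 5.68% and 4.84% after that centring. The summed level of 6 endothelial markers ran from 15.1 to 1725 RPM over both pre-graft groups and from 160 to 5114 RPM post-graft. It was above the MuSC sum in 2 of 7 EOM and 4 of 7 TA post-graft libraries, which held 9 to 26 cells, and counts of called genes, within-library balances and the genes called on grafting are given with and without these 6. Of 6 myofibre markers, 5 were called higher in EOM on grafting and 0 in TA, 5 and 2 after centring, and their sum ran from 9.47 to 263 RPM over both pre-graft groups and from 17.4 to 1060 RPM post-graft. Of 6 fibroadipogenic markers, 4 were called higher and 1 lower in TA and 1 each way in EOM. Their sums were 1205 to 3409 RPM pre-graft and 687 to 7328 RPM post-graft. Other cells also differed pre-graft. In TA against EOM, 2 myofibre markers were called higher, 1 endothelial marker each way, and Dcn (−5.62, fibroadipogenic) and Mbp (−5.17, Schwann cell) lower. The sum of 5 Schwann cell markers had a pre-graft median of 531 RPM in EOM and 18.2 in TA. The part of these other cells in the values of the 10 genes was not tested beyond leaving out the 6 libraries. By the labels every other passing post-graft library held at least 33 cells. Leaving out the 6 thus also removed the post-graft libraries with the fewest cells, so it cannot tell other cells and cell input apart. The mean share of reads on mitochondrial genes was 4.48% in EOM and 11.3% in TA pre-graft and 31.4% in EOM and 24.9% in TA post-graft. On the authors' log2 RPM scale the middle of all tested genes moved by −1.09 in TA and −1.48 in EOM on grafting, and lay at −0.30 for TA against EOM pre-graft. Counts and the changes of single genes on grafting are therefore also given after that centring. Passing libraries held 963432 to 4169357 reads on genes. In such bulk samples fewer MuSCs and less RNA per MuSC cannot be told apart.

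Across all 4 groups Kdm6b was the most abundant transcript of the 10 per exon length. Its median was 69.0 RPM per kb of exon in EOM and 81.6 in TA pre-graft, and 54.9 in EOM and 72.8 in TA post-graft. Its range over libraries lay above that of the next gene, the PRC1 ligase Rnf2, in both pre-graft groups and in EOM post-graft. In TA post-graft, where Kdm6b ran from 20.8 to 184.6 RPM per kb and Rnf2 from 2.78 to 23.99, the ranges overlapped. Every other pair of neighbours in the order overlapped in range in each group. Pre-graft, Rnf2 (27.5 in EOM, 19.0 in TA) was followed by Ezh2 and Eed in EOM and by Eed and Ring1 in TA, and Bmi1, a PRC1 subunit known for holding back the cell cycle inhibitor gene Cdkn2a, came last in both at 4.66 RPM per kb. Post-graft the last place was taken by Suz12 in EOM at 1.37 and by Ring1 in TA at 1.01 RPM per kb. Kdm6b shares 1188 bases with 1700064E03Rik on the opposite strand, a gene with 20 to 225 reads per library, and without strand in the counting reads from both cannot be told apart. None of the other 9 genes overlapped a gene of the table.

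**Figure D1:**
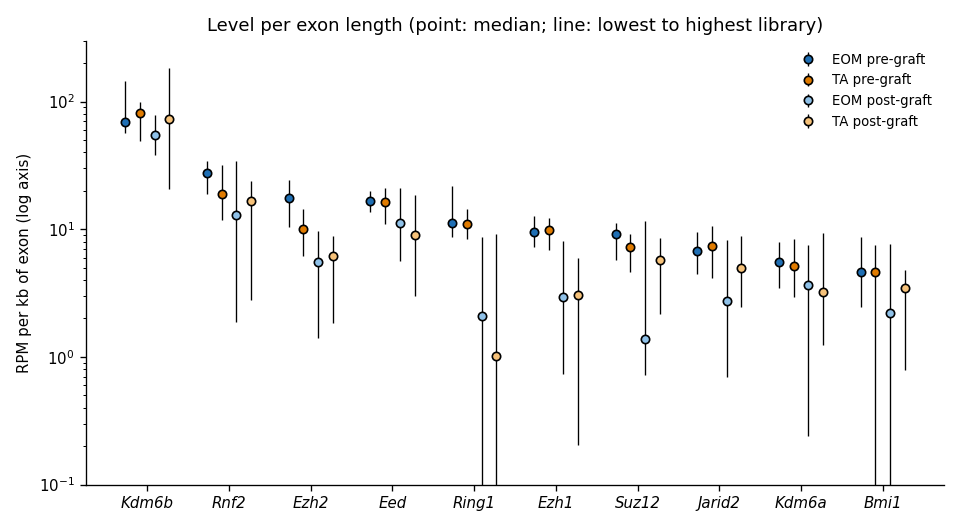
Level of each of the 10 genes per exon length, in RPM per kb of merged exon on a log axis, for the 4 groups of libraries. Points are medians over the 7 or 8 libraries of a group and lines run from the lowest to the highest library, cut at the bottom of the axis where a library had 0 reads. Kdm6b was highest in each group, and the medians of Ring1 fell from 11.3 and 11.0 pre-graft to 2.101 and 1.01 post-graft.

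Whether EOM and TA MuSCs differ in these genes before grafting was tested with limma on log2 RPM, where a gene was called at a Benjamini-Hochberg adjusted p under 0.05 over all tested genes and a change of over 1 log2 unit. None of the 10 genes was called, while 4.56% of all 13217 tested genes were, and 2 of the 10 had an unadjusted p under 0.05. edgeR and DESeq2 also called 0 of the 10. None of the 10 had groups without overlap, against 2.28% of the tested genes. The median log2 fold change of the 10, TA against EOM, was −0.12.

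Ezh2, the H3K27 methyltransferase typical of dividing cells, came nearest to a call. Its log2 RPM ran from 6.11 over a median of 6.87 to 7.34 in EOM and from 5.37 over 6.08 to 6.57 in TA. The groups overlapped, with the TA values in the lower part. Ezh2 was lower in TA by a log2 fold change of −0.78 ± 0.22 (SE), with a 95% interval of −1.23 to −0.34 and a limma adjusted p of 0.0260, inside the 2-fold limit. At an adjusted p under 0.05, 6.14% of all tested genes were lower in TA. The adjusted p was 0.0147 with the donor mouse as block, 0.113 in Experiment 2 alone and 0.180 after centring, where the log2 fold change was −0.54. Of 17 cell cycle genes, 12 were tested, with a median log2 fold change of −0.41 beside −0.30 for all tested genes. Mcm6, a subunit of the replication helicase, was the only one called, lower in TA at −2.53. Others went the other way, such as Mcm2, not called, with means of 0.47 log2 RPM in EOM and 2.38 in TA. The summed level of the 17 ran from 387 to 560 RPM in EOM and from 279 to 430 RPM in TA. Its part in the Ezh2 difference was not tested.

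Ezh1, the methyltransferase typical of resting cells, gave 5.75, 6.14 and 6.56 log2 RPM as lowest, median and highest in EOM and 5.67, 6.18 and 6.51 in TA. Its difference was 0.05 with an interval of −0.32 to 0.42. The balance of both enzymes was taken within each library, where scaling cancels. Ezh2 exceeded Ezh1 in 7 of 8 EOM libraries, by a mean of 0.71 ± 0.67 log2 units (SD, n = 8), and in 4 of 8 TA libraries, where the mean was −0.13 ± 0.41 (SD, n = 8). The difference of −0.83 had an exact two-sided permutation p of 0.0123 and 0.0491 after adjustment over 12 tests of 3 gene pairs. That adjusted p rose above 0.05 when 11 of the 16 libraries were left out singly, to at most 0.0982. The exceptions were EOM mice 2, 4 and 5 of Experiment 2 and TA mice 3 and 4 of Experiment 1. In Experiment 2 alone the difference was −0.64 (exact permutation p = 0.0563, adjusted 0.169). Over the 7 mice with both libraries it was −0.72 (exact sign-flip permutation p = 0.0312, adjusted 0.125).

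The other genes of PRC2 and PRC1 gave smaller or less certain pre-graft differences. Suz12, the scaffold subunit of PRC2, was −0.31 in TA against EOM, with an interval of −0.76 to 0.14. Eed, which binds methylated H3K27, was −0.12 (−0.51 to 0.27). Jarid2, which helps bring PRC2 to chromatin, was 0.04 (−0.44 to 0.52). These intervals stay within 1 log2 unit. Rnf2 was −0.47 (−0.89 to −0.05) with a limma adjusted p of 0.153, and Ring1 was −0.13 (−0.62 to 0.37). After centring Rnf2 was −0.23 (−0.62 to 0.16) and Ring1 0.11. Of the 10 genes, 2 were above 0 on the authors' scale, and 6 after centring. Bmi1 had the widest interval, −1.99 to 0.71, because one TA library, mouse 3 of Experiment 2, had 0 reads among 2834724, which allows up to 1.51 RPM, while the other 7 lay between 3.56 and 4.90 log2 RPM. Kdm6a was −0.12 (−0.64 to 0.41) and Kdm6b −0.08 (−0.49 to 0.33). Kdm6b exceeded Kdm6a in every library of both groups, by a mean of 3.61 ± 0.46 in EOM and 3.64 ± 0.58 in TA (SD, n = 8 each), and that balance differed by 0.03 (exact permutation p = 0.904).

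**Figure D2:**
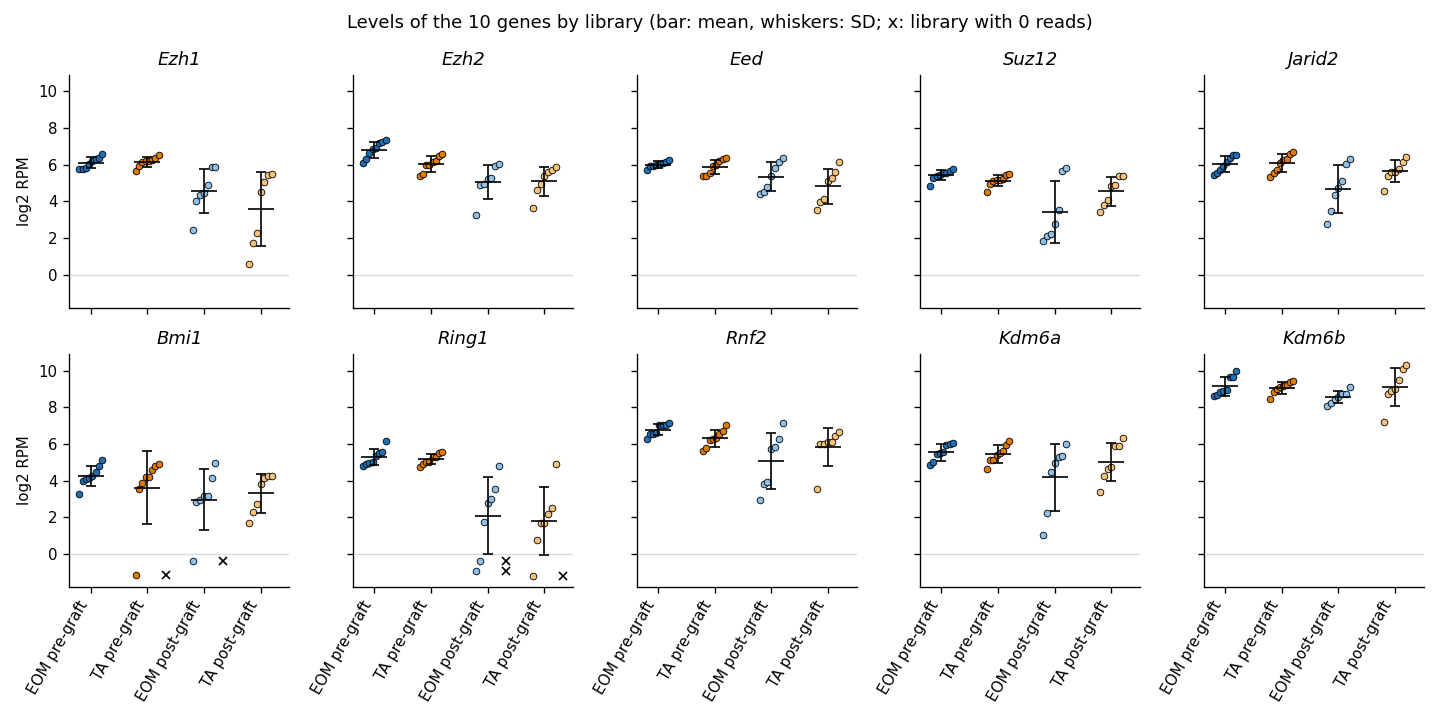
Log2 RPM of the 10 genes in each passing library, by group. Points are libraries, bars are means, whiskers are SD and crosses mark libraries with 0 reads. The post-graft points spread further than the pre-graft ones except for Bmi1 in TA and Kdm6b in EOM. Ring1 reached 0 reads in 2 EOM and 1 TA post-graft libraries.

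The change of TA MuSCs on grafting into another TA asks what transplantation does without a change of muscle. Every pre-graft library held 500 cells and every passing post-graft library fewer. Effects of grafting and of cell input therefore cannot be told apart, here or in EOM. Of the 10 genes, 2 were called lower, Ring1 and Ezh1, and 0 higher, with 30.9% of 13076 tested genes called lower and 3.79% higher. After centring, 1 of the 10, Ring1, remained called lower and 0 were called higher, with 5.68% and 7.67% of all genes. The median log2 fold change was −0.54 for the 10 and −1.09 over the whole table, and after centring 0.36 for the 10. edgeR called 0 of the 10, and DESeq2 called 2, Ring1 lower and Kdm6b higher. Without the 4 endothelial-rich libraries limma called 3 lower (Ring1, Ezh1 and Eed), and 0 once the rest were also centred. The pre-graft libraries serve here and in the comparison of EOM with TA, so those results share samples.

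Ring1 had 30 to 77 reads in each TA pre-graft library and 0 to 57 post-graft. Its log2 RPM ran from 4.76 over 5.15 to 5.54 pre-graft and from −1.22 over 1.71 to 4.88 post-graft. One post-graft library, mouse 2 of Experiment 2 with 67 cells, reached the pre-graft range with 57 reads, and the other 6 had 0 to 9 reads. Ring1 fell with a log2 fold change of −3.37 ± 0.73 (limma adjusted p = 0.00256), and 2.6% of the tested genes had a lower value. After centring the change was −2.47 with an adjusted p of 0.0208. DESeq2 called it lower too (−1.66, adjusted p = 0.0414) and edgeR did not (−1.73, adjusted p = 0.111). Without the 4 endothelial-rich libraries it was −2.43 (limma adjusted p = 0.0248), and with centring as well −1.87 (adjusted p = 0.0947). The library with 0 reads, mouse 3 of Experiment 1, allows up to 1.44 RPM by its count.

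Ezh1 fell in TA by more than the median of all genes as well. Its log2 RPM ran from 5.67 over 6.18 to 6.51 pre-graft and from 0.60 over 4.51 to 5.47 post-graft, so the groups did not overlap, as in 5.19% of tested genes and in no other gene of the 10. The log2 fold change was −2.58 ± 0.65 (limma adjusted p = 0.00588). After centring it was −1.69 with an adjusted p of 0.0540, which is not called, and edgeR and DESeq2 gave adjusted p-values of 0.210 and 0.215. The 3 lowest libraries had 3, 4 and 10 reads, came from mouse 6 and mouse 3 of Experiment 2 and mouse 3 of Experiment 1, and were all endothelial-rich. The remaining endothelial-rich library, mouse 1 of Experiment 2 with 70 reads, had the highest post-graft value, 5.47. Without the 4 endothelial-rich libraries the log2 fold change was −1.16 (limma adjusted p = 0.0259), and −0.60 with centring too (adjusted p = 0.238).

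Ezh2 in TA was at 3.62, 5.36 and 5.88 log2 RPM as lowest, median and highest post-graft, overlapping the pre-graft range. Its log2 fold change of −0.93 ± 0.42 was not called (limma adjusted p = 0.0815) and became −0.04 after centring. The balance of Ezh2 to Ezh1 moved from −0.13 ± 0.41 to 1.53 ± 1.86 log2 units (SD, n = 8 and 7), a difference of 1.65 (exact permutation p = 0.0165, adjusted 0.0494). That difference became 0.32 (exact permutation p = 0.394) without the endothelial-rich libraries. Its adjusted p rose above 0.05, to at most 0.135, when any of 12 of the 15 libraries was left out, the exceptions being TA post-graft mice 1, 2 and 5 of Experiment 2. In Experiment 2 alone it was 1.45 (exact permutation p = 0.0455, adjusted 0.169), and over 7 mice with both libraries 1.71 (exact sign-flip permutation p = 0.0156, the smallest that 7 pairs allow, adjusted 0.0938).

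Of the other PRC2 subunits, Eed had a log2 fold change of −1.06 ± 0.45 in TA (limma adjusted p = 0.0663), Suz12 of −0.58 ± 0.47 and Jarid2 of −0.43 ± 0.39. After centring these were −0.17, 0.31 and 0.47, and none was called on either scale. Rnf2, the second PRC1 ligase, ran from 3.52 over 6.10 to 6.63 log2 RPM post-graft, and from 5.61 over 6.29 to 7.04 pre-graft. Its change was −0.49 ± 0.44, and 0.40 after centring. Unlike Ring1 it had at least 14 reads in each library. Within libraries Rnf2 exceeded Ring1 by 1.15 ± 0.57 log2 units pre-graft and 4.03 ± 2.16 post-graft (SD, n = 8 and 7). The difference of 2.88 had an exact permutation p of 0.00109 and an adjusted p of 0.0130. It stayed under 0.05 when any 1 of the 15 libraries was left out, at 0.00799 to 0.0252. In Experiment 2 alone it was 2.24 (exact permutation p = 0.0130, adjusted 0.156), over mice with both libraries 2.84 (exact sign-flip permutation p = 0.0156, adjusted 0.0938), and without the endothelial-rich libraries 2.29 (exact permutation p = 0.0182, adjusted 0.0727). Bmi1 had a value of −0.32 ± 0.82, and 0.57 after centring, neither called.

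limma called neither demethylase gene in TA. Kdm6b ran from 8.43 over 9.15 to 9.43 log2 RPM pre-graft and from 7.17 over 8.98 to 10.33 post-graft. Its difference was 0.03 ± 0.38, which was 1.12 above the median of all genes. After centring it was 0.93 ± 0.23 with an adjusted p of 0.0106, inside the 2-fold limit. edgeR gave 0.93 (adjusted p = 0.0185), and DESeq2 called it higher at 1.05 (adjusted p = 0.000788). Summed, 12 genes that respond to cell dissociation, Fos and Jun among them, ran from 17230 to 31110 RPM pre-graft. Post-graft they ran from 2317 to 11740 RPM. Of the 12, 8 were called lower, while after centring 4 were called lower and 1, Ier3, higher at 1.42. Their part in the Kdm6b value was not tested. Kdm6a was −0.42 ± 0.48 and 0.48 after centring, and the balance of both genes differed by 0.45 (exact permutation p = 0.464).

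**Figure D3:**
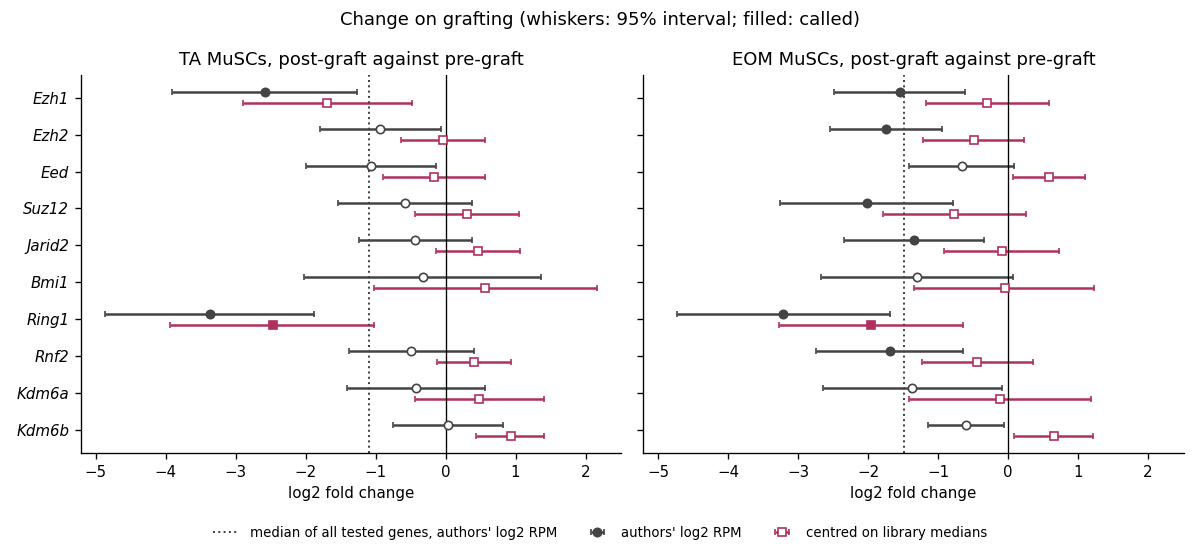
Log2 fold change on grafting of the 10 genes in TA MuSCs (left) and EOM MuSCs (right), on the authors' log2 RPM (circles) and after centring each library on its median (squares). Whiskers are 95% intervals, filled symbols are called, and the dotted line is the median over the whole table, −1.09 in TA and −1.48 in EOM. Ring1 was the only gene of the 10 called on both scales, at −3.37 and −2.47 in TA and −3.21 and −1.96 in EOM.

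EOM MuSCs were moved to a muscle of another origin, and 6 of the 10 genes were called lower after grafting: Ezh1, Ezh2, Suz12, Jarid2, Ring1 and Rnf2. None was called higher. Over all 13094 tested genes 55.8% were called lower and 3.51% higher, so the 6 of 10 lie near the share of all genes. After centring, 1 of the 10, Ring1, was called lower and 0 higher, with 4.84% and 6.65% of all genes. With the donor mouse as block 3 were called lower (Ezh2, Suz12 and Ring1), and with library totals taken without mitochondrial genes 1 was. Without the 2 endothelial-rich libraries 5 were called, Jarid2 being lost (−1.04, limma adjusted p = 0.0568), and 0 once the libraries were also centred. Of the 5, Ezh1 was then −1.39, Ezh2 −1.69, Suz12 −1.91, Ring1 −2.54 and Rnf2 −1.2, and after centring −0.43, −0.73, −0.94, −1.57 and −0.24. edgeR and DESeq2 called 0 of the 10, while 8 had an unadjusted p under 0.05 by limma. The median log2 fold change was −1.46 for the 10 and −1.48 over the whole table.

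Ring1 again had the lowest value of the 10. Its EOM libraries had 51 to 134 reads pre-graft and 0 to 56 post-graft. The log2 RPM ran from 4.82 over 5.19 to 6.14 pre-graft and from −0.95 over 2.77 to 4.82 post-graft, so the highest post-graft library, mouse 2 of Experiment 2, met the lowest pre-graft one. The libraries of mouse 4 and mouse 5 of Experiment 2, with 9 and 60 cells, had 0 reads, which allows up to 1.73 and 2.57 RPM. Ring1 fell with a log2 fold change of −3.21 ± 0.73 (limma adjusted p = 0.00200), and 5.3% of the tested genes had a lower value. After centring it was −1.96 (adjusted p = 0.0459). The log2 fold change was −1.45 by edgeR (adjusted p = 0.1805) and −1.37 by DESeq2 (adjusted p = 0.077), neither called. Without the 2 endothelial-rich libraries it was −2.54 (limma adjusted p = 0.00637), and with centring as well −1.57 (adjusted p = 0.106).

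Rnf2 was called lower in EOM at −1.69 ± 0.51 (limma adjusted p = 0.00911) and was −0.44 after centring. Its post-graft libraries spread from 2.94 over 5.74 to 7.14 log2 RPM and overlapped the pre-graft range of 6.29 to 7.14. Within libraries Rnf2 exceeded Ring1 by 1.49 ± 0.55 log2 units pre-graft and 3.01 ± 1.10 post-graft (SD, n = 8 and 7), a difference of 1.52 (exact permutation p = 0.00420, adjusted 0.0252). The adjusted p rose above 0.05, to at most 0.0594, when EOM pre-graft mouse 1 of Experiment 2 or mouse 3 or 4 of Experiment 1 was left out. In Experiment 2 alone the difference was 1.19 (exact permutation p = 0.0563, adjusted 0.169), over 6 mice with both libraries 1.53 (exact sign-flip permutation p = 0.0625, adjusted 0.188), and without the endothelial-rich libraries 1.34 (exact permutation p = 0.00622, adjusted 0.0727). In the 2 post-graft libraries where Ring1 had 0 reads, the balance used 0.9 reads for it. With log2 of RPM plus 1 the difference was 1.29 (exact permutation p = 0.00575, adjusted 0.0345). Bmi1 was at −1.30 ± 0.66 (limma adjusted p = 0.0881) and −0.05 after centring, with 1 post-graft library, mouse 5 of Experiment 2, at 0 reads.

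Ezh2 ran from 6.11 over 6.87 to 7.34 log2 RPM in EOM pre-graft and from 3.23 over 5.22 to 6.02 post-graft, and the groups did not overlap, as in 11.3% of tested genes and in no other gene of the 10. The log2 fold change was −1.74 ± 0.39 (limma adjusted p = 0.00172), and −0.49 after centring (adjusted p = 0.364). Summed cell cycle genes ran from 387 to 560 RPM pre-graft and from 97.5 to 432 RPM post-graft. Of 11 tested cell cycle genes, 5 were called lower, beside 55.8% of all genes. These 5 were all of the Mcm helicase, and Mcm5 (−3.87) and Mcm7 (−3.54) remained called after centring. The 11 fell less than the middle of all genes, with a median of −0.79 beside −1.48. After centring their median was 0.46 beside −0.23. Their part in the Ezh2 value was not tested.

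Ezh1 in EOM went from 5.75, 6.14 and 6.56 log2 RPM to 2.44, 4.45 and 5.90 as lowest, median and highest, with a log2 fold change of −1.55 ± 0.45 (limma adjusted p = 0.00792). After centring it was −0.30 (adjusted p = 0.670), and edgeR gave −0.02, so that Ezh1 lay close to the middle of all genes. With the donor mouse as block its limma adjusted p was 0.0617. The balance of Ezh2 to Ezh1 differed by −0.20 (exact permutation p = 0.755). Suz12 ran from 4.84 over 5.50 to 5.79 pre-graft and from 1.82 over 2.76 to 5.83 post-graft. Its log2 fold change was −2.02 ± 0.60 (limma adjusted p = 0.00864), and −0.77 after centring. Of its 7 post-graft libraries, 5 lay below the pre-graft range, at 1.82 to 3.52, and the other 2 were at 5.67 (mouse 4 of Experiment 1) and 5.83 (mouse 1 of Experiment 2).

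Jarid2 was called lower in EOM at −1.34 ± 0.48 (limma adjusted p = 0.0219), with an adjusted p of 0.166 with the donor mouse as block and 0.0558 in Experiment 2 alone. Eed was not called, at −0.66 ± 0.36 (limma adjusted p = 0.106). After centring Eed was 0.59 and Jarid2 −0.09, neither called. DESeq2 gave Eed 0.60 (adjusted p = 0.00474), inside the 2-fold limit and of the other sign than limma on the authors' scale. Kdm6b ran from 8.62 over 8.91 to 9.98 pre-graft and from 8.05 over 8.58 to 9.08 post-graft, the narrowest post-graft spread of the 10 in EOM. Its change was −0.60 ± 0.26 (limma adjusted p = 0.0509), 0.87 above the median of all genes and 0.65 after centring (adjusted p = 0.119). Kdm6a was −1.37 ± 0.62 (limma adjusted p = 0.0587) and −0.12 after centring, with 0.54 by edgeR and 0.68 by DESeq2, none called. The balance of the demethylase genes differed by 0.76 (exact permutation p = 0.292).

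**Figure D4:**
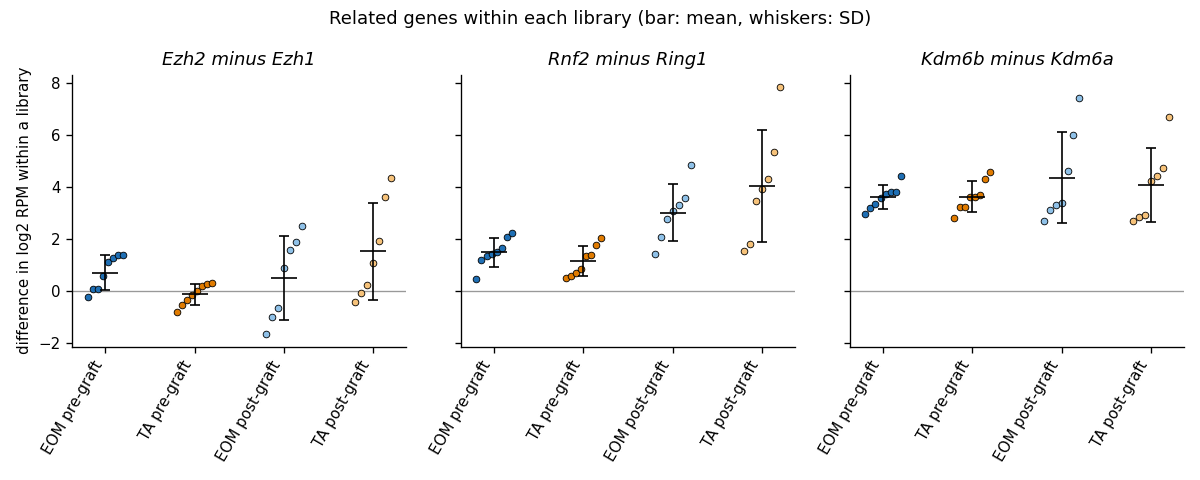
Difference in log2 RPM between related genes within each passing library, for Ezh2 minus Ezh1, Rnf2 minus Ring1 and Kdm6b minus Kdm6a. Points are libraries, bars are means and whiskers are SD. Rnf2 minus Ring1 had means of 1.49 and 1.15 pre-graft and 3.01 and 4.03 post-graft, while Kdm6b minus Kdm6a had means between 3.61 and 4.37 in all 4 groups.

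EOM and TA grafts in the same host muscle were then compared. None of the 10 genes was called, and 0% of all 12377 tested genes were by limma, which gave 452 of them an unadjusted p under 0.05, while edgeR called 0 and DESeq2 3 of them. limma gave 0 of the 10 an unadjusted p under 0.05, and edgeR and DESeq2 called 0 of the 10. None of the 10 had groups without overlap, against 0.0162% of tested genes. The intervals are wide. For Ezh2, TA against EOM, the log2 fold change was 0.03 with an interval of −1.23 to 1.30. For Suz12 it was 1.13 (−0.55 to 2.81), for Ezh1 −0.98 (−2.75 to 0.78), for Ring1 −0.29 (−2.56 to 1.98) and for Kdm6b 0.55 (−0.40 to 1.5). Jarid2 was 0.95 (−0.34 to 2.25), Eed −0.52 (−1.79 to 0.76), Bmi1 0.34 (−1.62 to 2.29), Rnf2 0.73 (−0.62 to 2.08) and Kdm6a 0.84 (−0.74 to 2.41). Differences of 2-fold were inside the interval of all of these. The 3 within-library balances gave exact permutation p-values of 0.291 (Ezh2 minus Ezh1), 0.302 (Rnf2 minus Ring1) and 0.748 (Kdm6b minus Kdm6a).

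Whether EOM and TA cells changed differently on grafting was tested as the EOM change minus the TA change. None of the 10 genes was called and none had an unadjusted p under 0.05, with 0.208% of 14428 tested genes called. edgeR and DESeq2 called 0 of the 10 as well. The 4 calls made in EOM and missed in TA (Ezh2, Suz12, Jarid2, Rnf2) are therefore not shown to differ between the muscles. Suz12 had the smallest unadjusted p of the 10, with a value of −1.44 and an interval of −2.92 to 0.05 (limma adjusted p = 0.702). Ezh1 was 1.04 (−0.61 to 2.68), Ring1 0.16 (−1.90 to 2.22) and Eed 0.40 (−0.73 to 1.53). The other 6 had values below 0 with intervals across it: Ezh2 −0.81, Jarid2 −0.91, Bmi1 −0.98, Rnf2 −1.2, Kdm6a −0.95 and Kdm6b −0.63.

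Other chromatin genes were counted from lists. Of 8 further PRC2 genes, 5 were called lower in TA and 5 in EOM on grafting, beside 30.9% and 55.8% of all tested genes, with medians of −1.25 and −1.56 beside −1.09 and −1.48. Rbbp4 and Rbbp7, histone-binding subunits, were called in both, Rbbp4 at −1.26 in TA and −1.62 in EOM. After centring none of the 8 was called lower, and Phf19 was called higher in TA at 2.94. Of 23 further PRC1 genes, 5 of 22 tested were called lower in TA and 13 of 21 in EOM, none higher, below the share of all genes in TA and above it in EOM, with medians of −1.16 and −1.65. After centring none was called lower, and Auts2 was called higher in EOM at 1.06. Pre-graft, Auts2, a subunit of a PRC1 variant, was called higher in TA at 1.07 (limma adjusted p = 0.00744). None of the further PRC2, H2A deubiquitinase or Trithorax genes was called pre-graft. Of 17 genes of the Trithorax group, which places the opposing mark on lysine 4 of histone H3, 10 were called lower in TA and 13 in EOM, beside the same 30.9% and 55.8% of all genes, with Cxxc1 at −2.98 and −2.69. After centring, 2 of the 17 were called in TA and 0 in EOM. Of 4 H2A deubiquitinase genes 1 of 3 tested was called lower in TA and 3 of 4 in EOM, Bap1 at −2.90 in EOM. Jhdm1d (Kdm7a) and Uty, which belong to other or related H3K27 demethylases, were called in no comparison.

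Genes known to be under Polycomb control in muscle were mostly near the limit of detection. Cdkn2a, the cell cycle inhibitor gene, had 0 reads in all 8 EOM pre-graft libraries, 0 to 15 reads in TA pre-graft, and 0 to 7 in each post-graft group. Has2, which makes hyaluronan, had at most 12 reads in any passing library. Myog, the differentiation factor gene, was read in 5 of 8 TA pre-graft libraries and 0 of 7 post-graft, and limma called it lower (adjusted p = 0.0152), with an adjusted p of 0.107 after centring. No fold is given, since every TA post-graft library was at 0 reads. Pax7, the gene that marks MuSCs, was higher in TA pre-graft at 1.15 ± 0.22 (limma adjusted p = 0.00153) and fell on grafting at −3.07 ± 0.57 in TA and −1.94 ± 0.58 in EOM. Pax7 stayed called in TA after centring (−2.18) and not in EOM (−0.69).

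The 39 Hox genes of the table, summed, ran from 0 to 4.78 RPM in EOM and from 146 to 247 RPM in TA pre-graft, without overlap. Post-graft they ran from 3.77 to 77.1 RPM in EOM and from 44.3 to 245 RPM in TA. No gene of the 10 was called between EOM and TA in either stage. How far the Hox sums and the Polycomb genes depend on each other was not tested.

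Likeness of pattern was taken as Pearson's r over the 30 passing libraries on centred log2 RPM among 11449 genes, as a description, since libraries share group, depth and cell content. Closest to Ezh1 were Acad9 (r = 0.83), Coq5 (0.82) and Zswim4 (0.81). Closest to Ezh2 were Birc3 (0.61), Gm10565 (0.59) and Elovl1 (0.59). Kdm6a was nearest to Agtpbp1 (0.74), Lnx2 (0.72) and Mapkapk5 (0.72), and Kdm6b to 1700064E03Rik (0.88), the gene that overlaps it, Notch1 (0.85) and Gnai2 (0.84). Among the 10 genes the highest r was that of Jarid2 with Kdm6a (0.66), followed by Suz12 with Jarid2 (0.51).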

How the data were processed

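RNA of sorted cells was separated by the G&T method and sequenced as paired reads. Per the labels and the study's methods, the authors trimmed reads with Trim Galore 0.4.4, aligned them with HISAT2 2.1.0 to GRCm38 and deposited log2 RPM per gene from SeqMonk. They also deposited total read counts and the percent of reads in exons, rRNA and mitochondrial genes. Libraries were taken as passing by the study's quality list. The log2 values gave whole reads for 99.99% of values (tolerance 0.02), with 0.9 reads standing for 0. The 40 bisulfite libraries were not analysed here.

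The 10 genes, the gene lists and the tests were chosen with earlier results of these data known. Genes with log2 RPM above 1 in at least 4 compared libraries were tested with limma 3.58.1 (trend, R 4.3.3) and called where the Benjamini-Hochberg adjusted p was under 0.05 and the change over 1 log2 unit. Balances of gene pairs were tested by exact two-sided permutation. edgeR 4.0.16 and DESeq2 1.42.0 on the recovered reads, the scaling, filter, pseudocount and library choices were alternatives. Exon lengths are from GENCODE, matched by gene ID. All 10 genes are named in every comparison, and from other lists at most 5 called genes per direction, of which some are not reported here. Donor mice pair the libraries because the same animals gave them. Deviations from group means of same-mouse libraries correlated with a median r of 0.05 between pre-graft groups and 0.01 and −0.04 across grafting in TA and EOM. Scripts were tested on simulated data. Intervals of fold changes cover the spread between libraries, and limits for 0 reads cover counting error only.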

Additional observations from a re-analysis of the deposited data

Results flagged for a closer look

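In 52 sets of 7 or 8 values, of the 10 genes or their within-library balances, 4 had a library far from the others by Dixon's test at 95%, and chance gives about 1 in 20. Each was the lowest of its group. Bmi1 was at −1.14 log2 RPM in TA pre-graft mouse 3 of Experiment 2, with 0 reads, while the next value was 3.56. Bmi1 was at −0.38 in EOM post-graft mouse 5 of Experiment 2, also with 0 reads, with 2.81 next. In that same library Ezh2 was at 3.23, with 11 reads, and 4.90 was next. Rnf2 was at 3.52 in TA post-graft mouse 3 of Experiment 2, with 14 reads, and 5.97 was next. These values stayed in all tests, and the cause of none was tested. No gene of the 10 had a graft change that differed between EOM and TA by limma's test.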

How the results depend on the processing

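Counts of called genes among the 10 stayed at 0 under every alternative run for both comparisons of TA with EOM and for the difference of graft changes. In TA on grafting the count of 2 became 1 after centring, 0 by edgeR, and 0 without the endothelial-rich libraries after centring. In EOM the count of 6 became 3 with the donor mouse as replicate block (paired), 1 with totals without mitochondrial genes, 1 after centring, 0 by edgeR, 0 by DESeq2, and 0 without the endothelial-rich libraries after centring. Leaving out single libraries gave 2 to 3 in TA and 6 to 8 in EOM. Eed was called in TA without post-graft mouse 2 of Experiment 2 or mouse 3 of Experiment 1. Bmi1 was called in EOM without post-graft mouse 4 of Experiment 1, and Kdm6a without that library or mouse 4 or 6 of Experiment 2. Leaving out the endothelial-rich libraries, which were also the post-graft libraries with the fewest cells, was chosen after seeing the data.

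Calls in EOM that changed sign were Ezh1 by DESeq2 (0.11) and Jarid2 by edgeR (0.00) and DESeq2 (0.10), none significant. Single genes gave 620 values under alternatives other than leaving out 1 library. Of the 620, 576 stayed called or stayed not called, 36 lost a call, 5 gained one and the 3 above changed sign. Only the 2 genes called in TA and the 6 called in EOM on grafting had a call to lose.

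The 4 within-library differences past adjusted p 0.05 kept their sign and missed it as follows. With the replicate block (sign flips over paired mice) Ezh2 minus Ezh1 was −0.72 pre-graft and 1.71 in TA on grafting, and Rnf2 minus Ring1 was 2.84 in TA and 1.53 in EOM. Both TA differences had the smallest sign-flip p that 7 pairs allow, 0.0156, so an adjusted p under 0.05 was hardly within reach. In Experiment 2 alone these were −0.64, 1.45, 2.24 and 1.19. With all libraries Ezh2 minus Ezh1 was −0.47 pre-graft and 1.21 in TA, and with log2 of RPM plus 1 it was 1.48 in TA. Without the endothelial-rich libraries Ezh2 minus Ezh1 was 0.32 in TA, and Rnf2 minus Ring1 2.29 in TA and 1.34 in EOM. That left 3 TA post-graft libraries, which also limits how small a permutation p can be. Leaving out single libraries gave −0.97 to −0.73 (pre-graft) and 1.18 to 1.98 (TA) for Ezh2 minus Ezh1, and 1.21 to 1.78 (EOM) for Rnf2 minus Ring1. The cause was not tested. Experiment 1 has 1 post-graft library per group, too few for a value of its own. Genes with few reads, Ring1 and Bmi1 above all, are the least precise.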
